A study of Mus musculus with 32 samples.

Results

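The receptors for the colony-stimulating factors and the GAB adaptors that act downstream of them are described here by their mRNA levels in mouse bone marrow-derived macrophages (BMDMs) in which the DNase gene Trex1 was inactivated. The set holds 10 genes of 54281 gene identifiers in the count table: the receptor genes Csf1r, Csf2ra, Csf2rb, Csf2rb2, Csf3r, Kit and Flt3 and the adaptor genes Gab1, Gab2 and Gab3. Members were found by matching each identifier without its version to these symbols, and all 10 had a row that passed the filter on low counts. They were chosen by name because Gab1 was lower after Trex1 loss on day 2, so the day 2 comparison of the genotypes after 4-OHT is a description without a test.

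CSF1R binds the macrophage growth factor CSF-1 and its relative IL-34, and is the receptor on which survival and proliferation of cultured macrophages depend. The receptors for GM-CSF and IL-3 pair a ligand-binding alpha chain with a signalling beta chain, while CSF3R responds to G-CSF and is best known from neutrophils. KIT and FLT3, the receptors for stem cell factor and FLT3 ligand, are typical of early progenitors. GAB proteins are docking adaptors that carry no enzyme activity: they are phosphorylated after receptor activation, and then recruit PI3 kinase and the phosphatase SHP2.

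BMDMs grown in medium conditioned by L929 cells, a source of CSF-1, came from Trex1 FL/FL and Trex1 WT/FL mice. Both genotypes carried R26-CreERT2, a Cre recombinase expressed from the ubiquitous Rosa26 locus and active only when 4-hydroxytamoxifen (4-OHT) is bound, and the WT/FL control cells kept 1 allele of Trex1 that Cre cannot remove. Treated cells received 4-OHT at 2 µg/ml over 22 h, the others none, and RNA was sequenced on days 1, 2, 3 and 4, with 2 libraries in each of 16 groups. The labels do not say whether the 2 libraries of a group came from separate animals or cultures, so p-values measure only the spread between these libraries, which may be technical.

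The 32 libraries held 35120505 to 63760884 counts (median 44841991), and the 2 libraries of each group were further apart than counting error alone allows, with a chi-square statistic of 9.55 to 51.5 per degree of freedom. The highest of these values belonged to untreated Trex1 FL/FL cells on day 1, where replicate 2 was also low for Csf2ra, at 82.6 CPM (counts scaled to a common library size with TMM factors) against 137 CPM in replicate 1. Trex1 itself had 0 counts in both 4-OHT-treated FL/FL libraries on days 1, 3 and 4, at least 221-, 1070- and 557-fold below the 4-OHT-treated WT/FL cells when a floor of 3 counts per library is used, and 14 and 9 counts on day 2. The macrophage markers Adgre1, Cd68, Itgam, Fcgr1, Mertk, Lyz2, Cd14 and Cd163 summed to 13900 to 42400 CPM in all libraries, although Cd163 stayed at or below 1.13 CPM. The 5 T and B cell markers together reached at most 0.173 CPM, and 3 of 6 mast cell markers were at 0 everywhere.

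Csf2rb and Csf2rb2 are close copies of each other. Csf2rb, the beta chain shared by the GM-CSF, IL-3 and IL-5 receptors, lies at chr15:78209952-78238047 on the plus strand of GRCm39, and Csf2rb2, the mouse beta chain specific to IL-3, lies next to it at chr15:78166707-78189921 on the minus strand. Their coding sequences were identical at 95.2% of 2628 aligned bases. The first 150 coding bases are shown because they let a reader see where the copies can be told apart, with capitals marking the 6 bases at which they differ.
Csf2rb: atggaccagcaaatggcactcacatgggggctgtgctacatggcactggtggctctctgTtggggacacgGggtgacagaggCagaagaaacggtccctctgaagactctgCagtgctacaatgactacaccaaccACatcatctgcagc
Csf2rb2: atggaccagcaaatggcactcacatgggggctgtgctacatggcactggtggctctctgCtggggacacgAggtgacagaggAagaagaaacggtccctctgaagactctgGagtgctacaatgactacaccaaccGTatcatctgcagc

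Of the 31-base words in the annotated transcripts of Csf2rb, 18.8% also occurred in Csf2rb2, and of those of Csf2rb2 28.6% occurred in Csf2rb. Levels of these paralogs were therefore also computed for their summed counts. Csf3r shared 13.5% of its words with a pseudogene that the annotation names Csf1r-ps, which held at most 25 counts in any library against 236 to 11197 counts for Csf3r. Gab1, Gab2 and Gab3 shared 7.04%, 1.27% and 5.22% of their words with any other gene, and Csf2ra shared 0.663%. Csf1r shared 20.4%, of which nearly all lay in the overlapping gene Hmgxb3 (18.9%).

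Promoter sequence is shown for the adaptor gene with the largest decrease and for the only receptor gene called higher on day 4, Gab1 and Csf3r. Each window runs from 250 bases before to 50 bases after the RefSeq start site, taken from RefSeq (GRCm38.p6) and matched letter for letter in GRCm39. Of the 10 members, Csf1r, Csf2rb, Gab2 and Gab3 had no entry. In the Gab1 window, chr8:81607099-81607398 on the minus strand, capitals mark a match to the STAT-type letters TTCNNNGAA that starts 28 bases after the start site.
Gab1: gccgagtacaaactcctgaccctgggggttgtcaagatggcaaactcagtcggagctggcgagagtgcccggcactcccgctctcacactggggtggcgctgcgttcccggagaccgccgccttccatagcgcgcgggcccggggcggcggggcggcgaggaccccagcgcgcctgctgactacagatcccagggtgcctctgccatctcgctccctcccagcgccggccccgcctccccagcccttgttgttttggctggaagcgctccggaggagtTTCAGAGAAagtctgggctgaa
In the Csf3r window, chr4:125918202-125918501 on the plus strand, capitals mark the ETS-type letters GAGGAA, 86 bases before the start site, and the IRF-type letters GAAANNGAA, 40 bases after it.
Csf3r: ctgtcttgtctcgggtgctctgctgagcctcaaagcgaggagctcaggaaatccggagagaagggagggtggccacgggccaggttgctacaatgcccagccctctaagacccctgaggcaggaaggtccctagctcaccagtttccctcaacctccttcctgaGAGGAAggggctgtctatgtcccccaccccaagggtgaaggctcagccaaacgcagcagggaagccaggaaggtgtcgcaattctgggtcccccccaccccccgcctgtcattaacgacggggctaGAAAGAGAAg

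Both strands were searched for these letters and for the C/EBP-type TTGNGNAA, the AP-1-type TGANTCA and the E-box CACGTG, and no other match was found in either window. Among 32851 promoters of the same length, 8.3% held the STAT-type letters, 28.3% the ETS-type letters and 8.56% the IRF-type letters. The Csf2rb2 window held 1 STAT-type, 2 ETS-type and 2 C/EBP-type matches, and the Csf2ra window 2 ETS-type matches and 1 C/EBP-type match. A match says only that the letters are present.

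Expressed members spanned a wide range of levels. Per kb of annotated exon length, Csf1r had the highest mean over the 32 libraries at 491 CPM per kb (178 to 848), followed by Csf2rb2 at 54.2, Csf2ra at 52.8 and Csf2rb at 46.4 CPM per kb. The order of these 3 changed when the longest transcript was used as the length (Csf2rb 68.9, Csf2ra 64.7 and Csf2rb2 54.2 CPM per kb), so they were not ranked against each other. Csf3r averaged 19.0 CPM per kb, Gab2 11.7, Gab1 4.71 and Gab3 1.84, in the same order with either length. The ranges of Csf3r (0.997 to 45.9), Gab2 (6.07 to 17.1), Gab1 (0.459 to 10.2) and Gab3 (0.704 to 2.70 CPM per kb) overlapped, because Csf3r and Gab1 moved over the days by more than their neighbours. Kit and Flt3 held at most 36 and 18 counts in any library, and both fell to 0 counts in some libraries, so they are given as counts only.

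**Figure D1:**
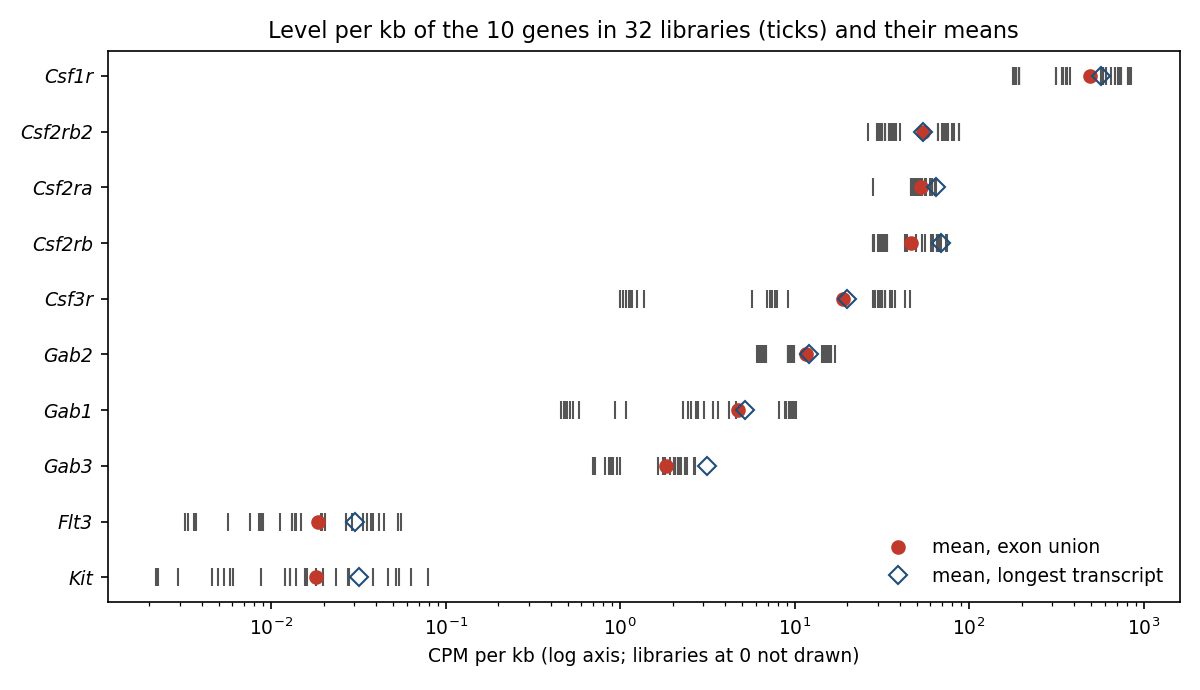
Level of the 10 genes in CPM per kb on a log axis, with 1 tick per library (32 libraries, those at 0 left out), the mean per kb of exon union (filled circle) and the mean per kb of the longest transcript (open diamond). Csf1r stands at the top with a mean of 491 CPM per kb, and Kit and Flt3 reach at most 0.0793 and 0.0557 CPM per kb.

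All expressed members but Csf2ra rose by 1.5-fold or more between day 1 and day 4 in WT/FL cells with and without 4-OHT, and Csf3r and Gab1 rose most. In untreated Trex1 WT/FL cells Gab1 was at 3.43 and 3.55 CPM on day 1, 18.7 and 17.0 CPM on day 2, 64.2 and 65.7 CPM on day 3 and 68.9 and 70.5 CPM on day 4, a 20.0-fold increase (log2 fold change 4.32, SE 0.099, adjusted p = 1.03e-22). Csf3r went from 5.96 and 5.74 CPM on day 1 over 39.2 and 37.6 CPM on day 2 and 167 and 157 CPM on day 3 to 156 and 158 CPM on day 4, a 26.8-fold increase (log2 fold change 4.74, SE 0.12, adjusted p = 8.6e-20). The libraries of days 1, 2 and 3 did not overlap for either gene, and no further change passed the test between days 3 and 4 (Gab1 log2 fold change 0.10, adjusted p = 0.414, and Csf3r -0.05, adjusted p = 0.804).

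Csf1r rose 3.64-fold in the same cells, from 1420 and 1370 CPM on day 1 to 5310 and 4820 CPM on day 4 (log2 fold change 1.86, SE 0.059, adjusted p = 4.86e-20). It peaked on day 3 at 6140 and 6150 CPM and fell by 17.5% to day 4 (log2 fold change -0.28, adjusted p = 0.000748). The beta chains rose late: Csf2rb did not pass the test between days 1 and 2 (log2 fold change 0.06, adjusted p = 0.472), Csf2rb2 fell over that step (log2 fold change -0.21, adjusted p = 0.0148), and both then rose 2.13- and 2.48-fold from day 2 to day 3. Gab3 in contrast rose 2.63-fold between days 1 and 2 and by no further step that passed the test. Gab2 rose 1.41-fold and 1.65-fold over the steps to day 2 and day 3.

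Because Gab1 rose so much, the order of the adaptors changed over the days. Per kb of exon, 4-OHT-treated WT/FL cells had 0.538 ± 0.066 (SD, n = 2) CPM per kb of Gab1 and 0.902 ± 0.014 of Gab3 on day 1, but 2.90 ± 0.16 of Gab1 and 2.06 ± 0.16 of Gab3 on day 2. In 4-OHT-treated FL/FL cells Gab1 (1.01 ± 0.10) was still below Gab3 (1.71 ± 0.08 CPM per kb) on day 2 and passed it on day 3 (4.41 ± 0.30 against 1.94 ± 0.19). Gab2 was above both in every group. These orders hold per kb of exon. The longest transcript is much shorter than the exon length for Gab3 (3103 against 5301 bases) but not for Gab1 (6248 against 6896 bases). On day 2, 4-OHT-treated WT/FL cells had a mean of 20 CPM of Gab1 and 10.9 CPM of Gab3. Per kb of the longest transcript, the mean of Gab1 was therefore below that of Gab3 there. The day 2 order given above for WT/FL cells depends on the length used. The day 2 levels of Gab1 after 4-OHT are those behind the selection, so they are a description only.

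By the call rule used for single members, an edgeR quasi-likelihood test with a Benjamini-Hochberg adjusted p below 0.05 and no minimum fold change, Csf1r, Csf2ra, Csf2rb, Csf2rb2, Csf3r, Gab1, Gab2 and Gab3 rose from day 1 to day 4 in untreated WT/FL, 4-OHT-treated WT/FL and untreated FL/FL cells, where 62.7%, 63.3% and 63% of 15257 genes changed. In 4-OHT-treated FL/FL cells the same genes other than Csf2ra (log2 fold change 0.26, adjusted p = 0.0963) rose, and 64.1% of all genes changed. Csf2ra was the least certain of them, with the untreated WT/FL libraries of day 1 left out in no fit. Its day 1 to day 4 change in untreated FL/FL cells was 0.71 on the log2 scale and 0.39 without replicate 2 of day 1, and in WT/FL cells it lost the call when any of 4 libraries was left out with 4-OHT (adjusted p up to 0.135) or either day 4 library without it (adjusted p up to 0.168).

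Kit, the stem cell factor receptor, had 13 to 36 counts in the 8 libraries of day 1 and 0 to 10 in the 24 later ones. Flt3 had 3 to 18 counts on day 1 and 0 to 17 later. Neither differed between the genotypes by the test on any day that could be tested. Between day 1 and day 4 edgeR called Kit lower in untreated WT/FL, 4-OHT-treated WT/FL and untreated FL/FL cells (adjusted p = 0.0299, 0.0148 and 0.00173). In 4-OHT-treated FL/FL cells Kit did not pass (adjusted p = 0.0719), and Flt3 passed in no arm. The calls of Kit rest on at most 36 counts per library, so no fold change is given.

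**Figure D2:**
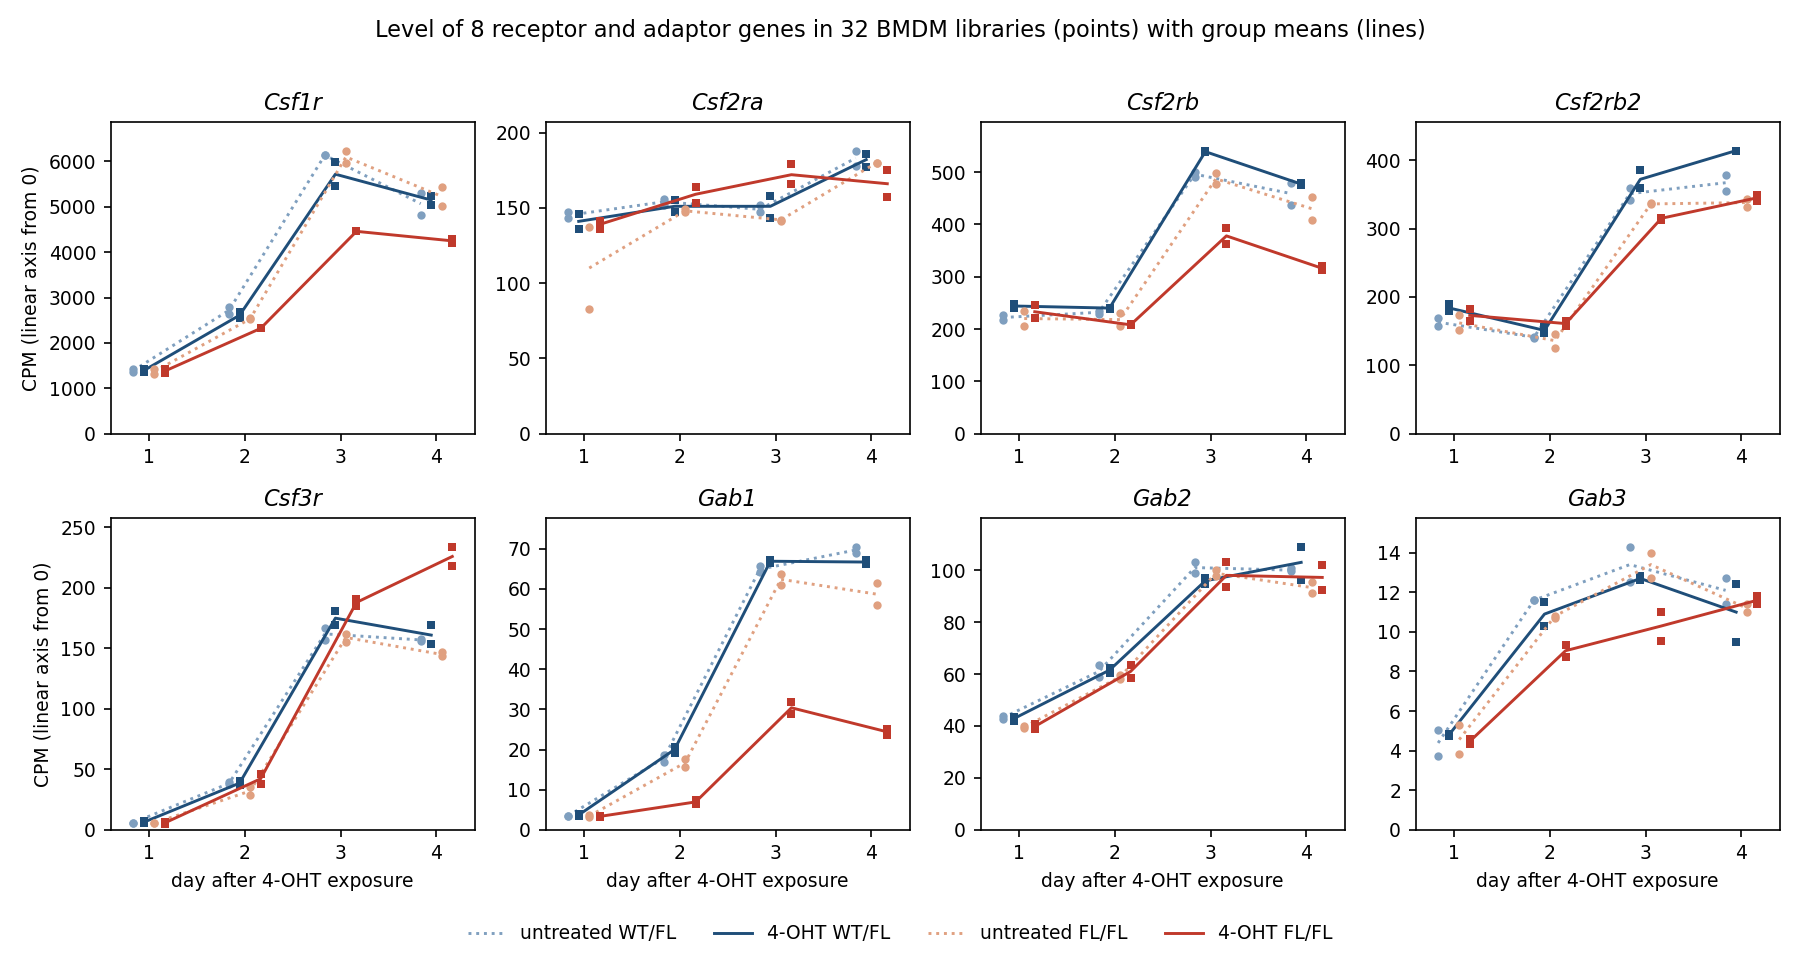
CPM of 8 members by day after 4-OHT exposure, on linear axes that start at 0, with a point for each library, a line through the mean of the 2 libraries of a group, solid lines for 4-OHT-treated and dotted lines for untreated cells. In 4-OHT-treated FL/FL cells Gab1, Csf1r and Csf2rb lie below the 3 control arms on days 3 and 4, and Csf3r lies above them on day 4.

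The comparison at the centre of the design sets 4-OHT-treated Trex1 FL/FL cells, which lost Trex1 mRNA, against 4-OHT-treated WT/FL cells on the same day. In the paper's Western blots the protein declined over the days, and much of it remained when the interferon response was first detected. The early days therefore do not describe cells free of the protein. On day 1 none of the 10 members was called, and Gab1 was at 3.29 and 3.39 CPM in FL/FL and 3.39 and 4.03 CPM in WT/FL cells. Of all genes 0.0197% were called by this rule on day 1 and 0.0131% by the stricter one, an adjusted p below 0.01 with an absolute log2 fold change above 1.5. The count of 0 members held also at an unadjusted p below 0.05 (308 of 15257 genes) and with DESeq2 (10 genes).

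On day 2, the contrast behind the selection, Gab1 was at 6.46 and 7.44 CPM in FL/FL and 20.7 and 19.2 CPM in WT/FL cells, a log2 fold change of -1.52 that lay just past the limit of 1.5. Of the other expressed members, Gab3 came nearest to that limit, at -0.27. Csf2rb was at 209 and 208 CPM against 241 and 238 CPM (log2 fold change -0.20), and Csf1r at 2320 CPM in both FL/FL libraries against 2680 and 2540 CPM (log2 fold change -0.17). Of all genes 0.583% were called by the stricter rule and 12.6% by the other on this day, and for the members nothing is read from these counts.

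On day 3, which the selection did not use, 4 of the 10 members were called against 19% of all genes, and all 4 were lower in cells that had lost Trex1. Gab1 was at 28.9 and 31.9 CPM in FL/FL and 66.5 and 67.3 CPM in WT/FL cells, decreased by 54.5% (log2 fold change -1.14, SE 0.081, adjusted p = 7.06e-11). Csf2rb was decreased by 29.9%, with 362 and 393 CPM against 541 and 538 CPM (log2 fold change -0.51, SE 0.067, adjusted p = 2.29e-06). Csf1r was decreased by 22.0%, with 4460 CPM in both FL/FL libraries against 5980 and 5460 CPM (log2 fold change -0.36, SE 0.057, adjusted p = 3.74e-05). For these 3 genes the groups did not overlap, and the FL/FL libraries also lay below all 4 untreated libraries of the day.

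The fourth gene, Csf2rb2, was at 313 and 316 CPM in FL/FL and 386 and 359 CPM in WT/FL cells (log2 fold change -0.24, SE 0.068, adjusted p = 0.0111). This call was lost when replicate 1 of the WT/FL cells (adjusted p = 0.163) or replicate 1 or 2 of the FL/FL cells (0.0801 and 0.0561) was left out. With the counts of Csf2rb and Csf2rb2 summed, the difference was -0.40 on the log2 scale (adjusted p = 4.99e-05).

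By day 4 the difference in Csf3r had joined them, and 5 of the 10 members were called against 30.2% of all genes. Gab1 was at 23.5 and 25.2 CPM in FL/FL and 66.3 and 67.1 CPM in WT/FL cells, decreased by 63.5% (log2 fold change -1.45, SE 0.083, adjusted p = 1.82e-13). Csf2rb was decreased by 33.7%, with 313 and 320 CPM against 475 and 479 CPM (log2 fold change -0.59, SE 0.067, adjusted p = 7.04e-08). Csf1r was at 4200 and 4300 CPM against 5250 and 5040 CPM (log2 fold change -0.28, SE 0.057, adjusted p = 0.000403), a smaller difference than those of Gab1 and Csf2rb.

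Csf3r was the only member called higher on day 4 against 4-OHT-treated WT/FL cells. It reached 218 and 234 CPM in FL/FL against 154 and 169 CPM in WT/FL cells on day 4, 40.4% more (log2 fold change 0.49, SE 0.096, adjusted p = 0.000335), while on day 3 the libraries stood at 185 and 191 against 169 and 181 CPM (log2 fold change 0.11, adjusted p = 0.504). Of 8 neutrophil markers, 4 stayed below 1 CPM in every library, and their sum on days 3 and 4 was 6.14 to 8.6 CPM in 4-OHT-treated FL/FL and 7.7 to 23.4 CPM in 4-OHT-treated WT/FL cells. Csf2rb2 was at 340 and 349 CPM in FL/FL cells and at 414 CPM in both WT/FL libraries on day 4 (log2 fold change -0.27, SE 0.068, adjusted p = 0.00328).

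By the stricter rule, which 0.872% of all genes met on day 3 and 2.98% on day 4, no member was called, since the changes of Gab1 stayed under its limit of 1.5. Ranked from the largest decrease, Gab1 stood at position 868 of 15257 genes on day 3 and 801 on day 4. The median log2 fold change of the 10 members was -0.27 on day 3 and -0.20 on day 4, beside -0.01 and -0.04 over all genes tested. Fewer macrophages and less RNA per macrophage cannot be told apart in such bulk libraries. The macrophage marker sum was 34500 to 34800 CPM in FL/FL and 40200 to 42100 CPM in WT/FL cells on day 3, and 25100 to 27200 against 25900 to 26500 CPM on day 4, and its part in the result for Csf1r was not tested. Lyz2, at 11100 to 34000 CPM over all libraries, made up most of this sum, and single markers differed: on days 3 and 4 the log2 fold change was -0.34 and -0.05 for Lyz2, -0.01 and -0.07 for Adgre1, -0.34 and -0.35 for Itgam and 1.28 and 2.27 for Fcgr1.

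**Figure D3:**
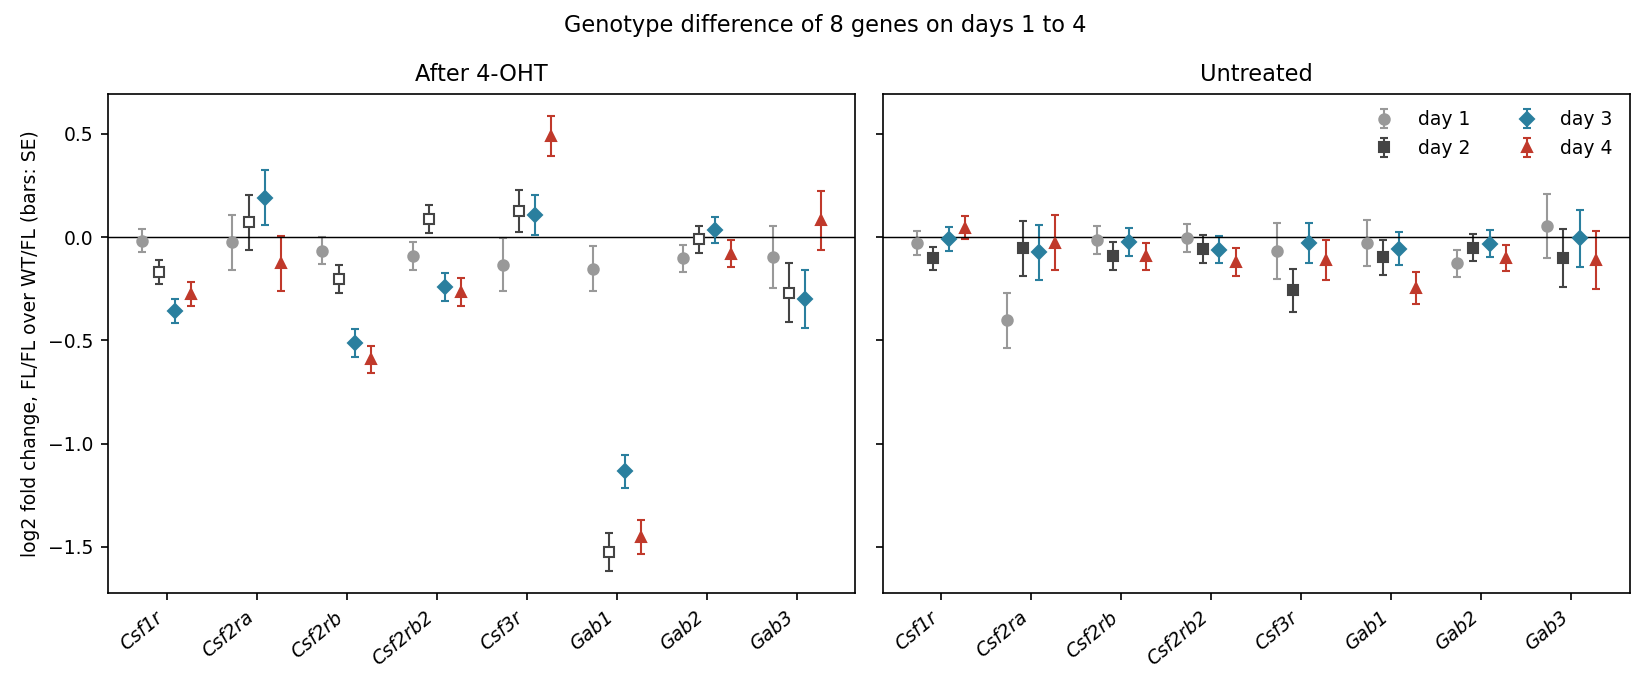
Log2 fold change of FL/FL over WT/FL cells (vertical axis, bars show the SE of the fit) for 8 members on days 1 to 4, after 4-OHT on the left and in untreated cells on the right, with open squares for the day 2 contrast that selected the members. Gab1 reaches -1.14 on day 3 and -1.45 on day 4 after 4-OHT and -0.25 on day 4 in untreated cells.

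Csf2ra, the alpha chain of the GM-CSF receptor, did not pass the test on day 3 (log2 fold change 0.19, SE 0.13, adjusted p = 0.379) or day 4 (-0.13, SE 0.13, adjusted p = 0.534), when its libraries were at 175 and 157 CPM in FL/FL and 186 and 177 CPM in WT/FL cells. Among the adaptors, Gab2 was at 93.5 and 103 CPM against 96.9 and 94.8 CPM on day 3 and at 92.5 and 102 CPM against 96.3 and 109 CPM on day 4 (log2 fold changes 0.03 and -0.08, SE 0.063 and 0.064, adjusted p = 0.797 and 0.386). Gab3 was at 9.56 and 11.0 CPM against 12.6 and 12.8 CPM on day 3 (log2 fold change -0.30, SE 0.14, adjusted p = 0.15) and at 11.4 and 11.8 against 9.5 and 12.4 CPM on day 4 (0.08, adjusted p = 0.731). The libraries of Gab3 did not overlap on day 3, and those of Gab2 overlapped on both days.

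Between untreated FL/FL and WT/FL cells no member was called by edgeR on any day, where 0%, 0.0197%, 0% and 2.01% of all genes were called on days 1 to 4. At an unadjusted p below 0.05, 1129, 588, 468 and 2414 of 15257 genes passed on days 1 to 4. DESeq2 called 2, 8, 9 and 729 genes. Of the members, 1, 1, 0 and 1 passed at that unadjusted p (Csf2ra, Csf3r and Gab1, in that order), and DESeq2 called 0, 0, 0 and 1. The exception was Gab1 on day 4, which was at 61.5 and 56.0 CPM in untreated FL/FL and 68.9 and 70.5 CPM in untreated WT/FL cells (log2 fold change -0.25, SE 0.079, edgeR adjusted p = 0.0964). This difference had the same sign as that after 4-OHT.

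The effect of 4-OHT was also read in WT/FL cells, which kept a Trex1 allele. Trex1 itself was lower there than in untreated WT/FL cells, by log2 fold changes of -1.16, -1.06, -0.86 and -0.80 on days 1 to 4 (adjusted p = 6.77e-06, 1.34e-06, 1.44e-05 and 0.000197), so exposure to 4-OHT and a lower Trex1 level cannot be told apart in this comparison. edgeR called no member there on any day, against 0.00655%, 0.0983%, 0.537% and 0.472% of all genes on days 1 to 4. Gab1 was not tested on day 2, because its treated libraries belong to the contrast behind the selection. At an unadjusted p below 0.05 only Csf2rb2 passed, on days 1 and 4 (log2 fold change 0.18 and 0.17), and DESeq2 called 0 on each day. For Gab1 the 4-OHT effect in WT/FL cells was 0.09, 0.16, 0.04 and -0.06 on the log2 scale on days 1 to 4.

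In FL/FL cells the effect of 4-OHT was of another size. On day 1, when 0.0131% of all genes were called, no member was. At an unadjusted p below 0.05, 1 member passed beside 1068 of all genes, and DESeq2 called 0 members beside 7 genes. On day 2, with 16.4% of all genes called, Csf2rb2 (log2 fold change 0.24, adjusted p = 0.0125) and Csf3r (0.39, SE 0.10, adjusted p = 0.00852) were higher than in untreated FL/FL cells, and Gab1 differed by -1.27 on the log2 scale, which was not tested. On day 3, Gab1 (-1.04, adjusted p = 2.08e-10), Csf1r (-0.45, adjusted p = 7.69e-07) and Csf2rb (-0.37, adjusted p = 0.000129) were lower, beside 23.5% of all genes called. On day 4, Gab1 (-1.27, adjusted p = 1.55e-12), Csf2rb (-0.44, adjusted p = 6.84e-06) and Csf1r (-0.30, adjusted p = 0.000152) were lower and Csf3r higher (0.64, adjusted p = 1.29e-05), beside 29.6%. DESeq2 also called Csf2rb2 and Csf3r on day 2, beside 2687 of all genes and with Gab1 left aside as not tested. It called 5 members on each of days 3 and 4, beside 3739 and 4611 of all genes. Those added were Csf2ra and Csf3r on day 3 and, on day 4, Kit, which had at most 4 counts in any of these libraries. Csf2rb2 differed between 4-OHT-treated and untreated FL/FL cells by -0.10 on day 3 (adjusted p = 0.353) and 0.03 on day 4 (adjusted p = 0.804), so its lower level on these days was seen only against the WT/FL cells.

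**Figure D4:**
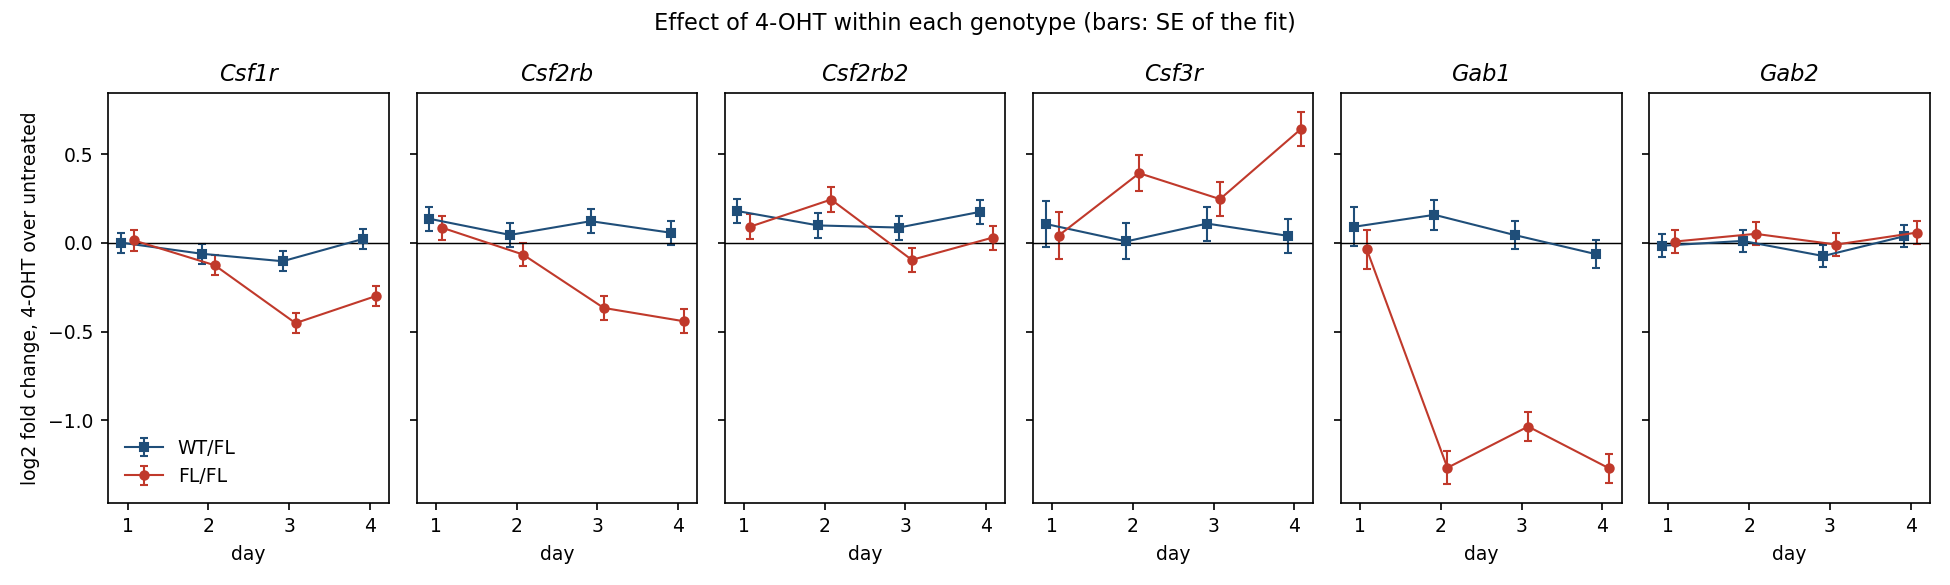
Log2 fold change of 4-OHT-treated over untreated cells (vertical axis, bars show the SE of the fit) by day for 6 members in WT/FL (squares) and FL/FL cells (circles). On day 4 Gab1 stands at -1.27 in FL/FL and -0.06 in WT/FL cells, and Csf3r at 0.64 and 0.04. The day 2 values of both genotypes use libraries of the contrast that selected the members.

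Whether the response to 4-OHT differed between the genotypes was tested as an interaction. On day 3, 3 members were called against 8.94% of all genes, namely Gab1 (-1.08, SE 0.11, adjusted p = 3.12e-07), Csf2rb (-0.49, SE 0.094, adjusted p = 0.00101) and Csf1r (-0.35, SE 0.081, adjusted p = 0.00561). On day 4, 4 members were called against 16.2% of all genes: Gab1 (-1.21, SE 0.11, adjusted p = 9.54e-09), Csf2rb (-0.50, SE 0.094, adjusted p = 0.00031), Csf1r (-0.32, SE 0.081, adjusted p = 0.00527) and Csf3r (0.60, SE 0.14, adjusted p = 0.00269). The interaction of Csf1r lost its call without replicate 1 of 4-OHT-treated WT/FL cells on day 3 (adjusted p = 0.0633), and on day 4 without replicate 2 of untreated WT/FL cells (0.058) or replicate 1 of untreated FL/FL cells (0.0519). Csf2rb2 did not pass on either day (-0.18 and -0.14, adjusted p = 0.287 and 0.372).

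The change of the genotype difference from day 3 to day 4 was called for 7.08% of all genes and, by edgeR, for no member. At an unadjusted p below 0.05, 2 members passed, Gab1 (-0.32, SE 0.11, adjusted p = 0.0997) and Csf3r (0.38, SE 0.14, adjusted p = 0.101), and DESeq2 called Csf3r alone. At that unadjusted p 2792 of 15257 genes passed, and DESeq2 called 1347. Within 4-OHT-treated FL/FL cells, Gab1 (-0.32, adjusted p = 0.00763) and Csf2rb (-0.26, adjusted p = 0.00829) fell between days 3 and 4, beside 2402 of 15257 genes called. Over the same step Csf2rb changed by -0.18 in 4-OHT-treated WT/FL (adjusted p = 0.0629) and -0.18 in untreated FL/FL cells (0.0529). In untreated WT/FL cells it changed by -0.11 (0.275). Gab1 changed by -0.004, -0.09 and 0.10 in these 3 control arms, and none of these values passed the test.

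The ligands and partners of these receptors were taken as a list of their own. Of 8 ligand genes, 4 were detected well enough to be tested, and on day 3 Csf1 and Kitl and on day 4 Csf1 were called, all higher in 4-OHT-treated FL/FL cells. The counts of this and the following lists stand beside 19% of all genes called on day 3 and 30.2% on day 4, and their medians beside -0.007 and -0.037 over all genes tested. The median log2 fold change of the 4 was 0.93 on day 3 and 0.09 on day 4, and both medians include Il34, whose differences of 4.54 and -2.92 had an SE of 2.01 and 1.46 and did not pass the test. The values of Csf1, which encodes the ligand of CSF1R, were singled out after they had been seen: 36.2 and 37.5 CPM in FL/FL against 12.9 and 16.1 CPM in WT/FL cells on day 3 (log2 fold change 1.35, SE 0.21, adjusted p = 0.000105), and 14.3 and 13.7 against 5.2 and 5.43 CPM on day 4 (1.395, SE 0.23, adjusted p = 6.57e-05). Its groups did not overlap on either day, and its interaction with 4-OHT was 1.24 (adjusted p = 0.0131) and 1.41 (adjusted p = 0.00423). Of the alpha chains that pair with the common beta chain, Il3ra was the 1 of 2 tested and was called on day 4 (0.46, adjusted p = 0.00431). The interaction of Il3ra with 4-OHT on that day did not pass the test (0.39, adjusted p = 0.121).

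Among 31 signalling proteins downstream of the receptors, day 3 showed 5 that were higher and 3 that were lower, and day 4 showed 6 of each (19% and 30.2% of all genes were called), with medians of -0.03 and -0.01. The SRC-family kinase gene Lyn, picked after its values had been seen, was at 358 and 370 CPM in FL/FL and 223 and 235 CPM in WT/FL cells on day 4 (log2 fold change 0.67, adjusted p = 1.73e-09). Of 15 negative regulators, day 3 showed 2 higher and 3 lower, while day 4 showed 4 higher and 3 lower (medians -0.16 and -0.03, against -0.007 and -0.037 over all genes). Only Socs1, an inhibitor of JAK kinases that is induced by cytokines, met the stricter rule among them, on day 4, with 7.09 and 5.57 CPM against 1.87 and 1.75 CPM (log2 fold change 1.80, SE 0.33, adjusted p = 0.00016).

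Of 10 transcription factors known to act on the Csf1r gene, day 3 showed 2 higher and 4 lower, while day 4 showed 2 of each, beside the 19% and 30.2% of all genes (medians -0.10 and 0.01). Cebpa, a factor of the myeloid lineage, stood at 81.4 and 77.9 CPM in FL/FL and 128 and 127 CPM in WT/FL cells on day 3 (log2 fold change -0.68, adjusted p = 0.000208). Klf4, a factor of monocyte differentiation, went the other way, with 20.4 and 20.0 CPM against 11.1 and 11.8 CPM (0.82, adjusted p = 0.000202), and both genes were chosen after their values had been seen. The list of other receptors that use GAB adaptors held Met, Egfr and the MET ligand Hgf. Of these, 1 was higher on day 3, and on day 4 1 was higher and 1 lower (medians 0.05 and 0.29). Egfr, the EGF receptor gene, met the stricter rule on day 4 with 9 counts in both FL/FL libraries against 66 and 39 counts in the WT/FL libraries (log2 fold change -1.90, SE 0.41, adjusted p = 0.000683). By the interaction test of that day, 2 of the 3 genes were called higher and 0 lower, beside 16.2% of all genes.

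The profile of Gab1 over the 16 group means was compared with those of the other genes tested, as a description. After each gene's own mean had been removed, the root mean square difference in log2 CPM was smallest for Gpr34 (0.297), a receptor for lysophosphatidylserine, Angptl7 (0.315), Fam43a (0.319), the ABC transporter gene Abca9 (0.320) and Spic (0.327), an ETS factor of macrophages. Their 4-OHT genotype differences were -1.46, -1.69, -1.25, -1.0 and -0.61 on the log2 scale on day 3, beside -1.14 for Gab1. Of the other members, Csf3r came closest to Gab1 over all groups (0.731, rank 119 of the genes tested). Both rose over the days, but their day 4 differences after 4-OHT had opposite signs. Csf1r followed at 0.900, Gab3 at 1.17, Gab2 at 1.19, Csf2rb at 1.26 and Csf2rb2 at 1.27.

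**Figure D5:**
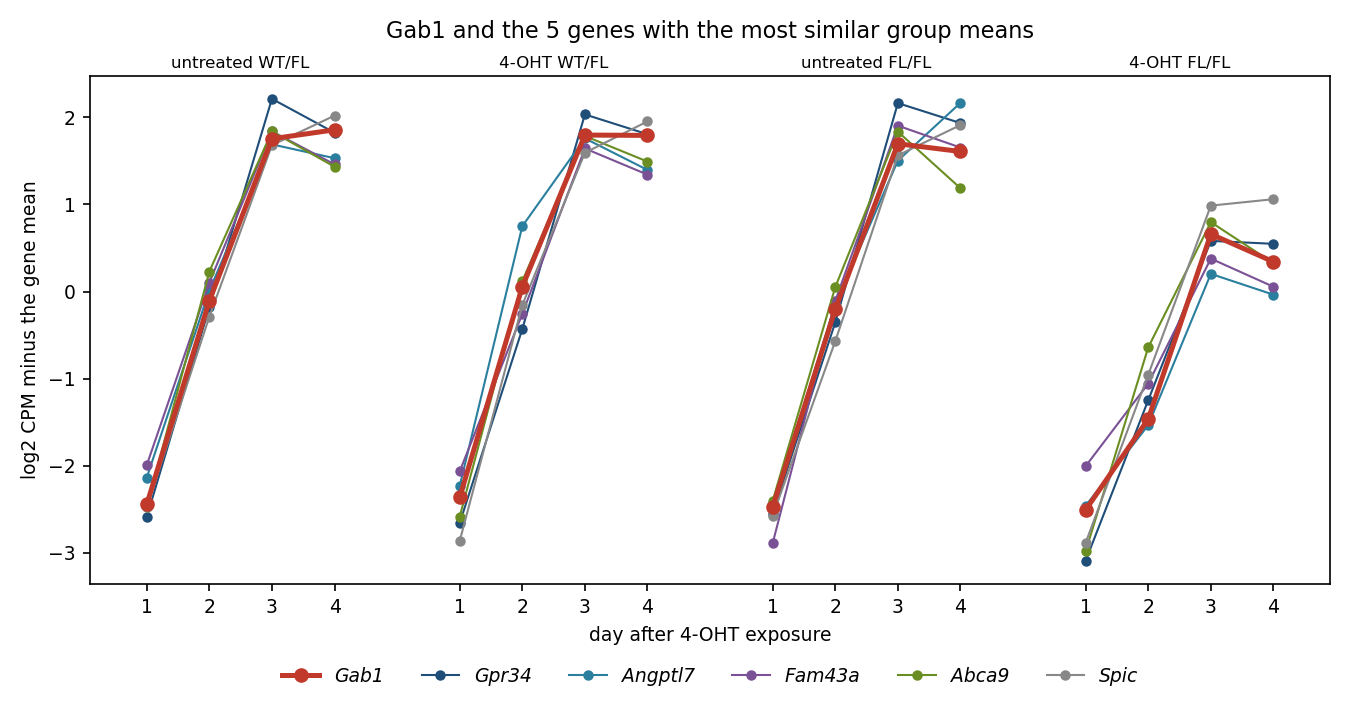
Mean log2 CPM of Gab1 and of the 5 genes with the most similar profile, minus each gene's own mean over the 16 groups (vertical axis), by day within the 4 arms. In 4-OHT-treated FL/FL cells all 6 profiles stay below the levels of the other arms on days 3 and 4.

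Markers of dendritic cells, another cell type that bone marrow cultures can hold, summed to 2.94 to 5.16 CPM in 4-OHT-treated FL/FL and 6.51 to 7.19 CPM in 4-OHT-treated WT/FL cells on days 3 and 4, with 5 of the 8 genes below 1 CPM in every library and 0 of them at 0 in all. The 6 progenitor markers summed to 0.138 to 0.393 CPM against 0.367 to 0.761 CPM, and the 6 fibroblast markers to 0.878 to 2.19 against 0.844 to 2.1 CPM. The mast cell sum of 2.18 to 3.68 against 0.411 to 1.41 CPM was carried by Hdc, while Kit, a defining gene of mast cells, had 0 to 10 counts in these libraries. The part of these markers in the results for the members was not tested.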

How the data were processed

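RNA-seq of BMDMs was analysed in 32 libraries. Per the labels and the study's methods, reads were demultiplexed with JE, checked with FastQC (11.9), quantified with Salmon (version not given in the sources used here) on GRCm39 and summed to genes with tximport, and the authors used DESeq2 (1.32). The values deposited by the authors are estimated counts per gene in whole numbers, not normalized, and were used as given. Salmon divides reads between similar transcripts by a model, which can move counts between Csf2rb and Csf2rb2.

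Of 54281 identifiers, 51048 matched GENCODE vM39, and unmatched ones held 0.32% of counts. edgeR (4.0.16, R 4.3.3) quasi-likelihood tests with robust estimation used TMM factors, 16 group means and the 15257 genes that passed filterByExpr with a minimum count of 10, and p-values were adjusted by Benjamini-Hochberg over these genes. The residual degrees of freedom were 16. Levels are CPM from TMM-scaled library sizes, and fold changes used a prior count of 0.125. A permutation test of 2 libraries against 2 cannot go below an exact two-sided p of 0.33, so none is given. The test was checked on simulated counts.

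The members and the 6 gene lists were chosen with earlier results of these data known. Named with values were the members, list genes past the stricter rule on day 1, 3 or 4, Trex1, and the 5 genes most similar to Gab1. Other named list genes were picked after their values were seen. Alternatives were RLE or upper-quartile factors, DESeq2 (1.42.0), other filters, no robust estimation, fewer libraries, another control, summed copies and single libraries left out. A library was left out in 25 fits, which did not cover all 32 libraries. The untreated WT/FL libraries of day 1 were never left out, so the changes from day 1 in these cells were not checked that way. The alternatives for the interaction and some of those for the change over days were added after the data had been seen. So was the fit without 1 untreated FL/FL library of day 1 for Csf2ra.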

Additional observations from a re-analysis of the deposited data

Results flagged for a closer look

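The 4-OHT effect in FL/FL cells minus that in WT/FL cells, on the log2 scale, passed the edgeR interaction test with a Benjamini-Hochberg adjusted p below 0.05 for the following genes, which is what drew attention to them. Gab1 differed by -1.08 on day 3 and -1.21 on day 4 (adjusted p = 3.12e-07 and 9.54e-09), with both 4-OHT-treated FL/FL libraries below the other 6 libraries of each day. Csf2rb differed by -0.49 on day 3 and -0.50 on day 4 (adjusted p = 0.00101 and 0.00031). For Csf3r the difference was 0.60 on day 4 (adjusted p = 0.00269). Csf1r differed by -0.35 on day 3 and -0.32 on day 4 (adjusted p = 0.00561 and 0.00527). Its call was lost on day 3 without replicate 1 of 4-OHT-treated WT/FL cells (-0.28, adjusted p = 0.0633), and on day 4 without replicate 2 of untreated WT/FL cells (-0.25, adjusted p = 0.058) or replicate 1 of untreated FL/FL cells (-0.26, adjusted p = 0.0519). The cause of these differences was not tested.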

How the results depend on the processing

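No paired analysis was possible because the labels give no replicate numbers, and those used here name libraries in accession order and pair none. Gab1 kept its direction under the 14 alternatives of tool, scaling, filter, control and libraries on days 3 and 4. Its call at an adjusted p below 0.05 also held. The log2 fold change ran from -1.21 to -1.04 on day 3 and from -1.502 to -1.207 on day 4. In the main fit Gab1 did not meet the stricter rule on either day. The lowest day 4 value came from a fit without 1 library and lay just past the limit of 1.5. The number of genes called by the stricter rule was 2, 89, 133 and 454 on days 1 to 4. Without a filter on low counts it was 35, 150 and 202 on days 1 to 3. Against untreated FL/FL cells it was 1, 157 and 255 on days 1 to 3, and as an interaction 1 on day 1 and 83 on day 3. With libraries of the same day only it was 1 on day 1. With the threshold of 0.05 on adjusted p alone it was 1920, 2901 and 4607 on days 2 to 4. Leaving out 1 library gave 1 to 2, 63 to 89, 79 to 141 and 355 to 441 on days 1 to 4, the 79 without replicate 1 of 4-OHT-treated WT/FL cells. The 4 and 5 members called on days 3 and 4 became 0 and 0 under the stricter rule, and 3 to 4 and 5 when a library was left out. RLE and upper-quartile factors moved the median of all genes by -0.0412 to 0.0166 on the log2 scale.

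Uncalled values changed sign as follows. Against untreated FL/FL cells, day 1 gave 0.0134 for Csf1r, 0.34 for Csf2ra, 0.085 for Csf2rb, 0.0916 for Csf2rb2, 0.0407 for Csf3r and 0.0073 for Gab2, and Gab2 gave -0.0098 on day 3 and 0.0579 on day 4. As an interaction, day 1 gave 0.0123 for Csf1r, 0.38 for Csf2ra and 0.0236 for Gab2, and day 4 gave 0.0208 for Gab2. With 1 library left out, day 1 values ran from -0.0735 to 0.0354 for Csf1r, -0.0749 to 0.0224 for Csf2ra, -0.15 to 0.0104 for Csf2rb and -0.31 to 0.0497 for Csf3r. Those of Gab2 ran from -0.0359 to 0.10 on day 3 and -0.17 to 0.0132 on day 4, its interaction from -0.0038 to 0.13 and -0.0704 to 0.11, and Gab3 on day 4 from -0.10 to 0.28. The called difference of Csf2rb2 on day 4 became 0.0294 against untreated FL/FL cells. Csf2ra passed the test on day 3 with libraries of the same day only (0.20, edgeR adjusted p = 0.0227), and lost its change over days in untreated WT/FL cells with RLE factors (0.31, adjusted p = 0.0521). The cause was not tested. Depth did not allow fold changes for Kit and Flt3.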

Other observations

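The pseudogene Csf1r-ps shared 733 of its 31-base words (32.1%) with Csf3r and held 0 to 25 counts per library.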
